A study of Homo sapiens with 17 samples.

Results

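The genes described here are 10 transcripts that RAS-ERK signalling is known to induce and that are taken here as readouts of its output. The set holds the MAP kinase phosphatase genes DUSP1, DUSP4, DUSP5 and DUSP6 and the Sprouty family genes SPRY2, SPRY4 and SPRED1. It also holds the ETS transcription factor genes ETV4 and ETV5, and PHLDA1. Some of these genes, such as DUSP1, respond to other signals as well. The 10 genes were chosen by name, and all were found among the 9699 genes of the expression table. RNA-Seq, which measures transcript level, and Ribo-Seq, which sequences the mRNA fragments that ribosomes cover and so measures translation, were applied to immortalized human BJ fibroblasts. There were 17 libraries, 9 of RNA-Seq and 8 of Ribo-Seq, in 5 conditions, and the study asked how transcript levels and translation respond to energy stress and to oncogenic RAS.

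All cells were BJ foreskin fibroblasts that carry hTERT, the catalytic subunit of telomerase, and were cultured in 10% serum unless stated. Cells for Ribo-Seq were treated with the drug cycloheximide shortly before lysis, a treatment listed for no RNA-Seq sample. Every ratio of Ribo-Seq to RNA level below therefore sets treated against untreated cells, and the effect of the drug was not tested. Apart from this drug, proliferating cells were untreated, and quiescent cells were depleted of serum. Pre-senescent and senescent cells expressed a tamoxifen-inducible RASG12V, a RAS protein locked in its active state, and received 4-OHT-tamoxifen, for 5 days in the former and 14 days in the latter. Transformed cells carried 2 stable knock-downs, 1 of them of p16INK4A, and the SV40 small T antigen, and were transduced with pBabe-puro-RASG12V, a construct that is not inducible. They therefore differ from the other RAS cells in 3 loci or transgenes besides RAS, and no control with the knock-downs and small T but without RAS was analysed here. Whether the untreated and the serum-depleted cells also carried the inducible construct is not given in the labels.

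In background, a growth factor receptor activates RAS, which turns on the RAF, MEK and ERK kinases in series. ERK induces, within the same cell, genes whose products switch the pathway off again: DUSP proteins remove the activating phosphates from MAP kinases, while Sprouty and SPRED proteins act further up, between the receptor and RAF. ETV4 and ETV5 are transcription factors of the PEA3 group that carry the ERK signal on to other genes. In fibroblasts and tumours, genes of this set are widely used as readouts of pathway output.

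The deposited values are FPKM, that is, fragment counts corrected for transcript length and library size, and the authors set any value below 1 to 1. RNA values covered the whole transcript and Ribo-Seq values the coding sequence only. Each assay has 6 columns: proliferation of sequencing run 1 (2 libraries joined), proliferation of run 2, quiescence (2 joined), pre-senescence (2 joined for RNA, 1 library for Ribo-Seq), senescence and transformed. Each condition was compared with proliferation of its own run, which is run 1 for quiescence and pre-senescence and run 2 for senescence and transformed cells. There were thus no replicate columns of any condition within a run, and none of the differences below has a test or a replicate error. A difference was called higher or lower when it passed 2-fold. Counts among the 10 genes against the control of the same run are given beside the percentage of all 9699 genes called by the same rule. For counts against the control of the other run that percentage was not computed, so those counts have no such baseline. The same holds for the other changes of processing, apart from the local SD rule described below. In bulk samples such as these, fewer cells of a type and less RNA per cell cannot be told apart.

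Some labels could be checked. Cell-cycle genes, 5 measured of 6, were all past 2-fold lower in senescent RNA (13.0% of all genes) and also in quiescent RNA (2.37%). None of them was past 2-fold lower in pre-senescent (2.00%) or transformed RNA (5.33%). CDKN1A, a cell-cycle inhibitor gene, and GDF15, a stress-induced cytokine gene, were 4.75-fold and 29.8-fold higher in senescent RNA. They come from a list of 7 genes, of which 5 were past 2-fold higher there (7.08% of all genes). All 8 fibroblast markers were measured, with summed RNA levels of 5467 to 7888 FPKM across the 6 columns, of which VIM alone gave 2956 to 4881. In senescence 5 of the 8 were past 2-fold lower in RNA (13.0% of all genes) and 5 in Ribo-Seq (16.6%). In RNA 3 were lower in pre-senescence (2.00%), 1 in transformed cells (5.33%) and none in quiescence (2.37%). Of 10 markers of other cell types only CD14 was in the table, at 1 to 1.67 FPKM. KRT19, an epithelial keratin gene looked up after the values were seen, was at 39.8 FPKM in RNA and 91.1 in Ribo-Seq in proliferation of run 2, the control of senescence and transformed cells, and at 1 to 4.43 and 1.95 to 8.96 in the other columns, and its part in the results was not tested. COL1A1, a fibroblast marker, was lower in senescent RNA by 4.69 on the log2 scale against run 2. Its RNA level was 51.6 FPKM in senescence, 1328 in proliferation of run 2 and 371 in that of run 1, so the size depended on the control. CDKN2A, which encodes p16INK4A, had RNA levels of 12.6 FPKM in transformed cells and 6.75 and 17.2 in proliferation of runs 2 and 1, so the direction depended on the control. Its Ribo-Seq level in transformed cells, 5.51 FPKM, was the lowest of the 6 columns, with 8.92 and 13.0 in proliferation and 33.05 in quiescence. It lay close to the 6.33 of senescence and the 7.05 of pre-senescence, so the level does not by itself show the knock-down. Total HRAS RNA was not ordered by the RAS labels, which state no total level. It was 312 FPKM in transformed cells but 1284 and 2415 in proliferating cells, 1254 in quiescent and 2087 to 2102 in the 2 inducible RAS conditions. ESR1, the gene of the receptor part of a tamoxifen-inducible fusion, had RNA levels of 19.2 and 102 FPKM in proliferating cells and was at the floor of 1 in transformed cells. Reads from a construct and from the endogenous gene cannot be told apart, so neither gene shows where RASG12V was on, and the names of conditions below are those of the labels. The Ribo-Seq libraries titled as senescence and as proliferation of run 2 carry each other's condition in a second label, and were taken by title. Across all genes the senescence changes of RNA and Ribo-Seq then had r = 0.83. An exchange only reverses the sign of each senescent Ribo-Seq change, so the r of -0.83 when exchanged was fixed in advance. The Ribo-Seq levels of the cell-cycle genes MKI67, CCNA2 and CDK1 were 1, 1 and 1.65 FPKM in the library titled senescence and 43.0, 49.5 and 96.7 in the one titled proliferation, as the titles say.

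The set of RefSeq promoters used here held 6 of the 10 genes (DUSP1, DUSP6, PHLDA1, SPRED1, SPRY2 and SPRY4). DUSP4, DUSP5, ETV4 and ETV5 were not in that set. Of the 8 windows of 250 bases before a transcription start, 4 are shown, because DUSP1 parted from the other genes in the results below and DUSP6, SPRY2 and SPRED1 carry the motif bound by the PEA3 group. The sequences run 5′ to 3′ on the strand of the gene, in build GRCh38.p14, and end at the base before the start. Capitals mark TGACGTCA (the cAMP response element), TATAAA (the TATA box) and AGGAAG or its reverse complement CTTCCT (the core motif of PEA3, another name of ETV4).
DUSP1, chr5:172771196-172771445, minus strand: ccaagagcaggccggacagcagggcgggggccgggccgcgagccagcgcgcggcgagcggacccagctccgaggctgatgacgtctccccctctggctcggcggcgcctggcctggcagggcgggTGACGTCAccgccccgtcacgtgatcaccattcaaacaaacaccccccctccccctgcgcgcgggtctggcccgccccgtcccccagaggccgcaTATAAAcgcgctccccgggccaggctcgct
DUSP6, chr12:89352502-89352751, minus strand: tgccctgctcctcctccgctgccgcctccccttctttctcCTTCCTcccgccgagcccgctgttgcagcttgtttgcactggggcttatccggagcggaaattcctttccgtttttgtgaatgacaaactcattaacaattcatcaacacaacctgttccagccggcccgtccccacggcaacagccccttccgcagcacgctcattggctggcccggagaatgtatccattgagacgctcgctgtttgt
SPRY2, chr13:80341127-80341376, minus strand: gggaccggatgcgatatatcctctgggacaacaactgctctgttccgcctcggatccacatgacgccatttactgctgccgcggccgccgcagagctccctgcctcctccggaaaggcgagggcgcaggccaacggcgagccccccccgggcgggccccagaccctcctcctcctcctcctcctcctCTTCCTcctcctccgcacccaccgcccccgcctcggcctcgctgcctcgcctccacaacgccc
SPRED1, chr15:38252586-38252835, plus strand: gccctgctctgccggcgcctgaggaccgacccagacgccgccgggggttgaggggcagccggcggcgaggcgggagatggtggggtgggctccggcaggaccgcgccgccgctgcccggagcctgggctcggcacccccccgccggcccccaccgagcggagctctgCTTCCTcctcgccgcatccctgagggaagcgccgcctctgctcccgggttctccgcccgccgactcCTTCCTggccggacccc

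Among the 6 genes the cAMP response element was found before DUSP1 alone, 125 to 118 bases before the start, and 1.65% of all 35116 RefSeq windows of this length hold it on either strand. DUSP1 was also the gene with TATAAA on its own strand, 30 to 25 bases before the start, as 6.8% of windows have. The PEA3 core AGGAAG, searched on both strands, stood in 5 of the 8 windows, which belong to 3 of the 6 genes, and in 28.7% of all windows. SPRY2 had more than 1 window, each with a match. It lay 210 to 205 bases before the DUSP6 start, 63 to 58 bases before the SPRY2 start shown, and at 2 places before SPRED1. The longer ETS consensus CCGGAAGT was in none of the 8 windows, against 3.42% of all windows. The GC box GGGCGG was in 5 of the 8 windows, from 5 of the 6 genes, against 42.6% of all windows. These are matches of letters and no binding was measured.

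All 120 values of the 10 genes lay above the floor, from 1.26 FPKM upwards. The 2 proliferation columns, which come from different runs, give the one repeat of a condition. Over all genes the SD of their log2 difference was 0.62 in RNA, 0.84 in Ribo-Seq and 0.63 in translation efficiency (TE, the log2 ratio of Ribo-Seq to RNA level). Between them, DUSP4 and PHLDA1 were lower in run 2 by 1.15 and 1.04 on the log2 scale in RNA, which is 2 of the 10 genes where 2.99% of all genes were that much lower, and none was past 2-fold higher (4.84% of all genes). In Ribo-Seq SPRY2 was 2.40-fold higher in run 2 (10.3% of all genes higher) and DUSP4 2.17-fold lower (8.21% lower). In TE ETV4 was 2.29-fold higher in run 2 (5.83% higher) and none was lower (3.87% lower). For DUSP4, PHLDA1, SPRY2 and ETV4, therefore, the choice of control bears on the differences below, and for each comparison the genes past 2-fold against the other run are named beside those against its own.

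**Figure D1:**
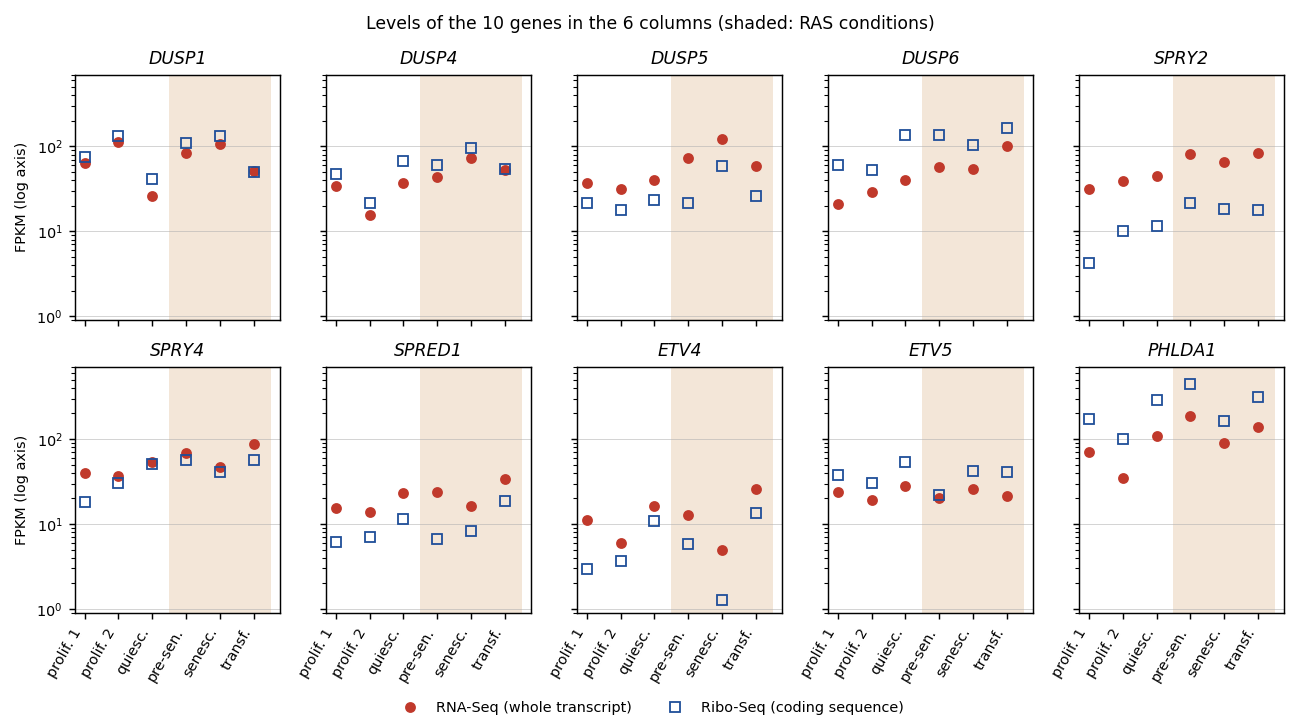
RNA-Seq (red circles) and Ribo-Seq (blue squares) levels of the 10 genes in FPKM on a log axis, 1 point per column, with the 2 proliferation columns first and the 3 RAS conditions shaded. RNA of DUSP4, DUSP5, DUSP6 and SPRY2 lay higher in every shaded column than in the 3 columns of proliferation and quiescence. DUSP1 had its lowest RNA level in quiescence (26.4 FPKM), and ETV4 Ribo-Seq came closest to the floor of 1, at 1.26 in senescence.

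The 4 phosphatases followed different courses. DUSP6, the cytoplasmic phosphatase that acts on ERK itself, had RNA levels of 20.8 and 29.2 FPKM in proliferation of runs 1 and 2, 40.7 in quiescence, 57.2 in pre-senescence, 54.2 in senescence and 101 in transformed cells. Its Ribo-Seq levels in the same order were 60.6, 52.7, 134, 138, 105 and 162 FPKM. Both proliferation columns were the lowest of the 6 in each assay and the transformed column was the highest, and the RNA was 2.76-fold higher in pre-senescence and 3.48-fold higher in transformed cells than in proliferation of the same run. With run 1 as control the transformed log2 change was 2.29 instead of 1.80. With run 2 as control, the pre-senescent RNA change was 0.97 on the log2 scale, just short of 2-fold.

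DUSP4 and DUSP5, nuclear phosphatases of which DUSP5 acts on ERK alone, were at their highest level in senescence. DUSP4 RNA was 34.5 and 15.5 FPKM in the 2 proliferation columns, 37.3 in quiescence, 44.1 in pre-senescence, 73.6 in senescence and 52.1 in transformed cells. DUSP4 Ribo-Seq was 46.8, 21.6, 67.0, 59.8, 94.3 and 54.0 FPKM in that order. The proliferation column of run 2 was the lowest by RNA and by Ribo-Seq, so the fold depended on the control: senescent RNA was higher by 2.25 on the log2 scale against run 2 and by 1.10 against run 1, while transformed RNA was 3.35-fold higher against run 2 but 0.60 on the log2 scale, under 2-fold, against run 1. DUSP5 RNA was 36.7 and 31.8 FPKM in proliferating cells, 40.15 in quiescent, 73.35 in pre-senescent, 123 in senescent and 58.9 in transformed cells. DUSP5 Ribo-Seq was 21.6, 17.8, 23.4, 21.3, 58.8 and 25.9 FPKM. Its senescent columns stood apart from the other 5 in both assays, 3.87-fold higher than proliferation in RNA and 3.31-fold in Ribo-Seq, and both were past 2-fold against run 1 too, with a log2 change of 1.44 in Ribo-Seq. In pre-senescence the RNA was just short of 2-fold higher and the Ribo-Seq level was not, with a log2 change of -0.02.

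DUSP1, a nuclear phosphatase that prefers p38 and JNK and is induced by stress as well as by serum, did not share this course. DUSP1 RNA was 63.7 and 113 FPKM in the 2 proliferation columns, 26.4 in quiescence, 84.4 in pre-senescence, 106 in senescence and 51.8 in transformed cells. Its Ribo-Seq levels were 74.2, 133, 41.1, 109, 133 and 49.5 FPKM. The lowest columns were quiescence and transformed in both assays. Quiescent RNA was 2.42-fold lower than proliferation of run 1, and transformed RNA and Ribo-Seq were 2.18-fold and 2.70-fold lower than proliferation of run 2. Against run 1 the transformed changes were -0.30 and -0.59 on the log2 scale, no longer past 2-fold, whereas the quiescent RNA change was -2.10 against run 2.

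Among the Sprouty genes, SPRY2 had RNA levels of 31.6 and 39.3 FPKM in proliferating cells, 45.05 in quiescent, 81.7 in pre-senescent, 64.7 in senescent and 84.4 in transformed cells. SPRY2 Ribo-Seq was 4.22, 10.1, 11.4, 21.75, 18.2 and 17.6 FPKM. The 3 RAS columns were the 3 highest in both assays. SPRY2 was 2.59-fold higher in pre-senescent RNA and 5.15-fold higher in pre-senescent Ribo-Seq, and with the higher Ribo-Seq control of run 2 the latter was 1.10 on the log2 scale in place of 2.37. SPRY2 inhibits receptor tyrosine kinase signalling and is itself switched on by it.

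SPRY4, its close relative, had RNA levels of 40.15 and 37.1 FPKM in proliferating cells, 53.8 in quiescent, 68.1 in pre-senescent, 46.6 in senescent and 88.05 in transformed cells. SPRY4 Ribo-Seq was 18.4, 30.2, 51.1, 57.35, 40.9 and 56.0 FPKM. Senescence was the lowest of the RAS columns in both assays and overlapped with quiescence. The gene passed 2-fold in transformed RNA (2.37-fold) and in the Ribo-Seq of quiescence (2.78-fold) and pre-senescence (3.12-fold), but the Ribo-Seq changes were 0.76 and 0.93 on the log2 scale, both under 2-fold, against run 2. SPRED1, which recruits the RAS GTPase activating protein NF1 to the membrane, had RNA levels of 15.6, 14.0, 23.3, 24.1, 16.25 and 33.7 FPKM in the same order. SPRED1 Ribo-Seq was 6.15, 7.09, 11.5, 6.65, 8.34 and 18.9 FPKM. Only the transformed columns passed 2-fold, by 2.40-fold in RNA and 2.67-fold in Ribo-Seq, and both did so with run 1 as control too (1.11 and 1.62 on the log2 scale).

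The ETS pair parted from each other. ETV4 RNA was 11.1 and 5.99 FPKM in proliferating cells, 16.5 in quiescent, 12.8 in pre-senescent, 4.99 in senescent and 25.7 in transformed cells. ETV4 Ribo-Seq was 2.98, 3.70, 10.8, 5.87, 1.26 and 13.6 FPKM. Quiescent and transformed cells had the 2 highest levels and senescent cells the lowest in both assays. Transformed cells were higher 4.29-fold in RNA and 3.68-fold in Ribo-Seq, quiescent cells 3.62-fold in Ribo-Seq with a log2 RNA change of 0.58, and senescent cells were 2.94-fold lower in Ribo-Seq, where the value was close to the floor. ETV5, whose protein belongs to the same PEA3 group, had RNA levels of 23.6, 19.4, 27.9, 20.2, 25.8 and 21.1 FPKM and Ribo-Seq levels of 37.7, 30.7, 53.9, 21.9, 41.8 and 40.4 FPKM in the same order. It passed 2-fold in no comparison and no assay, with log2 changes from -0.23 to 0.41 in RNA and from -0.78 to 0.52 in Ribo-Seq.

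PHLDA1, a pleckstrin homology-like domain protein whose mRNA is induced by growth factors, was the most abundant of the 10 in most columns. Its RNA was at 70.7 and 34.4 FPKM in proliferating cells, 108 in quiescent, 189 in pre-senescent, 89.4 in senescent and 139 in transformed cells. Its Ribo-Seq levels were 171, 100.05, 290.2, 449, 163 and 309.6 FPKM. Pre-senescence had the highest level in both assays, at 2.67-fold and 2.63-fold over proliferation of run 1, and the quiescent RNA level lay above the senescent one. Both orders compare levels across runs and were reversed against proliferation of the same run. The log2 RNA change was then 0.61 in quiescence and 1.38 in senescence. It was 1.42 in pre-senescence and 2.01 in transformed cells, and in Ribo-Seq 1.40 and 1.63. The senescent and transformed RNA were 2.60-fold and 4.03-fold higher against run 2, and 0.34 and 0.97 on the log2 scale against run 1, both under 2-fold.

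Quiescence was compared with proliferation to ask what serum depletion does to these readouts. No gene of the 10 was past 2-fold higher in RNA (4.01% of all genes) and DUSP1 was lower (2.37%). In Ribo-Seq DUSP6, SPRY2, SPRY4 and ETV4 were higher (9.11%) and none was lower (8.02%). The median log2 change over the 10 genes was 0.47 in RNA and 0.84 in Ribo-Seq, beside 0.00 and -0.05 over all genes. RNA and Ribo-Seq changes had the same sign for 10 of 10 genes. The share of all genes with the same sign was not computed, but over all genes the changes had r = 0.70, so this count does not set the 10 apart. A second rule calls a change past a multiple of the local SD, the SD over the 501 genes nearest in level, with the multiple that the study used for its own sliding cut-off. It called DUSP1 and DUSP6 in RNA (7.77% of all genes in either direction) and the same 4 genes in Ribo-Seq (7.50%). Against run 2 the RNA of DUSP4, ETV4 and PHLDA1 was past 2-fold higher, so the count of 0 rests on the run 1 control. In Ribo-Seq DUSP4, DUSP6, ETV4 and PHLDA1 were higher against run 2 and DUSP1 was lower, while SPRY2 and SPRY4 had log2 changes of 0.17 and 0.76.

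Pre-senescence, 5 days into RASG12V induction, shares that control. DUSP6, SPRY2 and PHLDA1 were past 2-fold higher in RNA, 3 of 10 beside 1.77% of all genes, and none was lower (2.00%). In Ribo-Seq DUSP6, SPRY2, SPRY4 and PHLDA1 were higher (7.13%) and none was lower (10.3%). Median log2 changes were 0.69 in RNA and 0.76 in Ribo-Seq, beside 0.02 and -0.10 over all genes. By local SDs 5 genes were called in RNA, DUSP5 and SPRY4 joining the 3 (6.60% of all genes), and the same 4 in Ribo-Seq (7.32%). Against run 2 there were also 5 in RNA past 2-fold, namely DUSP4, DUSP5, SPRY2, ETV4 and PHLDA1, and the 4 in Ribo-Seq were DUSP4, DUSP6, SPRY2 and PHLDA1. The signs of the RNA and Ribo-Seq changes were the same for 9 of 10 genes, and DUSP5 was the exception. Over all genes these changes had r = 0.44, and the share with the same sign was not computed.

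Senescence was reached after 14 days of induction. DUSP4, DUSP5 and PHLDA1 were higher in RNA (7.08% of all genes) and none was lower (13.0%). In Ribo-Seq DUSP4 and DUSP5 were higher (11.0%) and ETV4 was lower (16.6%), shares not far from those of all genes. The medians over the 10 genes were 0.57 in RNA and 0.57 in Ribo-Seq, beside -0.00 and -0.10 over all genes. By local SDs the same 3 genes were called in RNA (7.61%) and DUSP4 in Ribo-Seq (7.86%). Against run 1 DUSP4, DUSP5, DUSP6 and SPRY2 were higher and ETV4 lower in RNA, and DUSP4, DUSP5, SPRY2 and SPRY4 were higher and ETV4 lower in Ribo-Seq. If the 2 Ribo-Seq libraries with conflicting labels were exchanged, the senescent Ribo-Seq changes would only change sign. Those of DUSP4, DUSP5 and ETV4 would be -2.13, -1.73 and 1.55 on the log2 scale.

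Transformed cells were compared with the same run 2 control. DUSP4, DUSP6, SPRY2, SPRY4, SPRED1, ETV4 and PHLDA1 were past 2-fold higher in RNA, 7 of 10 beside 4.92% of all genes, and DUSP1 was lower (5.33%). In Ribo-Seq DUSP4, DUSP6, SPRED1, ETV4 and PHLDA1 were higher (5.28%) and DUSP1 was lower (7.36%). The medians were 1.26 in RNA and 1.11 in Ribo-Seq, beside 0.08 and 0.00 over all genes. By local SDs 8 genes were called in RNA (6.08%) and 5 in Ribo-Seq (6.37%). With run 1 as control 5 genes were higher in RNA, without DUSP4 and PHLDA1, and none was lower. The same 5, DUSP6, SPRY2, SPRY4, SPRED1 and ETV4, were higher in Ribo-Seq with that control and none was lower, with log2 changes of 0.21 for DUSP4 and 0.86 for PHLDA1. Were the run 2 control library of Ribo-Seq, the one with conflicting labels, exchanged for the senescent one, SPRED1 and ETV4 would be higher and DUSP1 and DUSP5 lower.

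**Figure D2:**
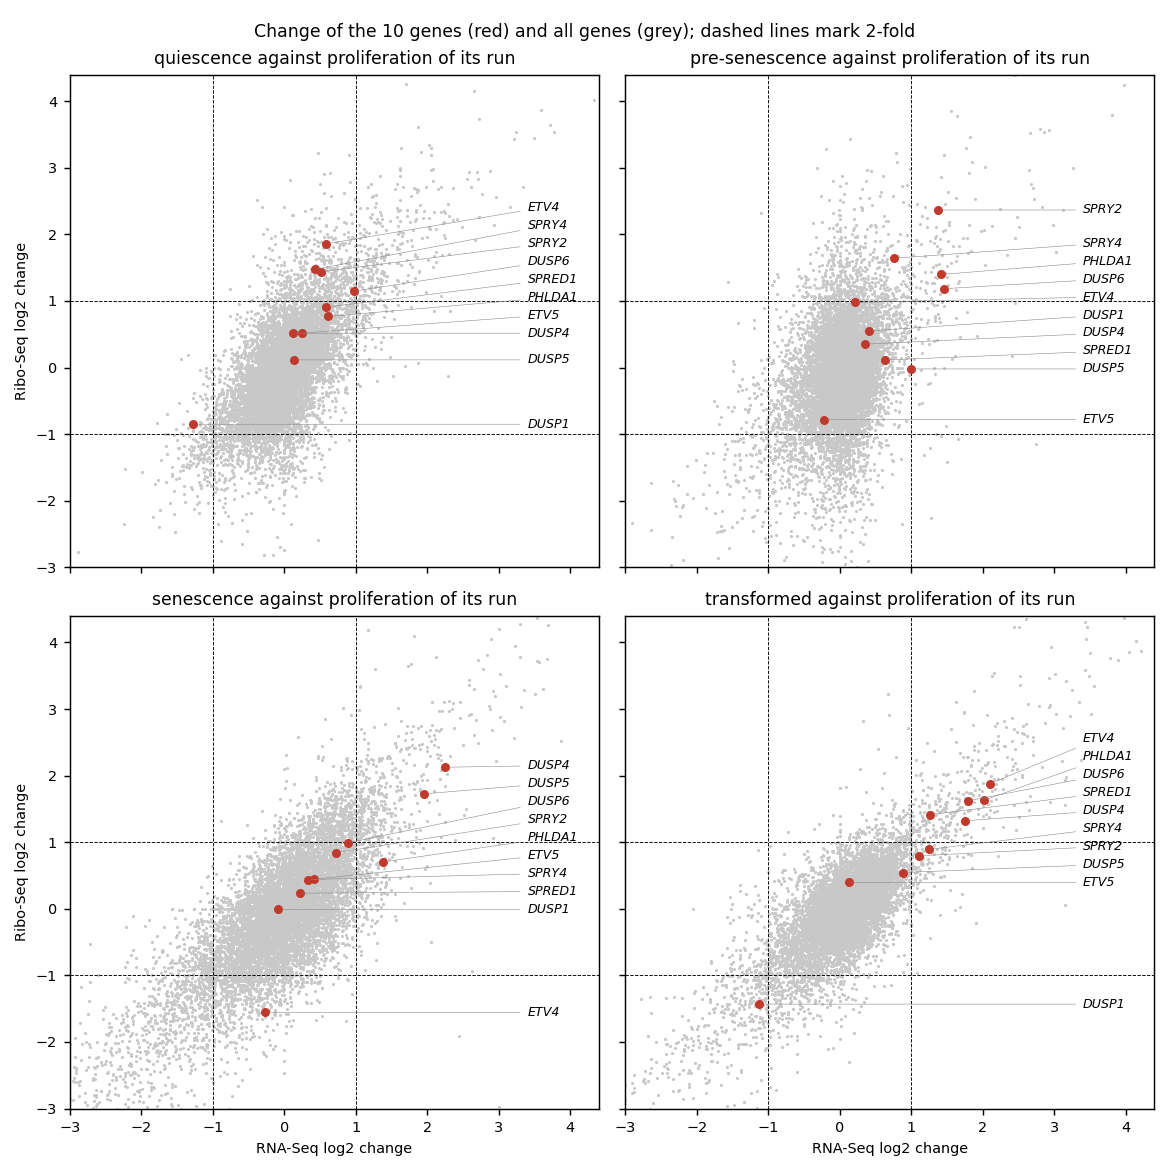
Log2 change in RNA-Seq (x axis) and in Ribo-Seq (y axis) of each condition against proliferation of its own run, with the 10 genes in red, all genes in grey and 2-fold as dashed lines. Genes beyond the axis limits are not drawn. In transformed cells 7 of the 10 genes lie right of the 2-fold line and DUSP1 lies left of it, while in senescence DUSP4 and DUSP5 lie farthest to the upper right.

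The 3 RAS columns were then set against the 3 columns without RAS, irrespective of run. Without RAS here means proliferation and quiescence, conditions that are not described with RASG12V. Whether those cells carried the inducible construct is not given in the labels, so this is not a contrast with cells known to lack it. In each of these columns HRAS and ESR1 were higher than in transformed cells, in both assays. In RNA, DUSP4, DUSP5, DUSP6 and SPRY2 were higher in every RAS column than in any column without RAS, 4 of 10 beside 8.18% of all genes, and none was lower in all (6.58%). The lowest RAS column exceeded the highest other column by 1.18-fold for DUSP4, 1.47-fold for DUSP5, 1.33-fold for DUSP6 and 1.44-fold for SPRY2. In Ribo-Seq SPRY2 alone did so (4.58%), at 17.6 to 21.75 FPKM with RAS and 4.22 to 11.4 without, and none was below (6.53%). Relative to proliferation of each run, the 4 RNA genes were DUSP4, DUSP5, SPRY2 and PHLDA1. DUSP6 was left out since it was lower in senescence (0.89 on the log2 scale) than in quiescence (0.97). In this form both proliferation columns are equal by construction, which is a different criterion from that on the levels. The share of all genes was not computed for it, so the 8.18% above is no baseline for this count. In Ribo-Seq, relative to proliferation of each run or with the 2 conflicting Ribo-Seq libraries exchanged, SPRY2 no longer did. The Ribo-Seq ranges of the 3 phosphatases overlapped because quiescent DUSP4 and DUSP6 and pre-senescent DUSP5 lay inside the other range.

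TE, given here as the ratio of Ribo-Seq to RNA FPKM, ranged widely between these genes. SPRY2 had a ratio of 0.134 to 0.281 in the 6 columns, and only 1.18% of all genes had a lower mean TE. ETV4 (0.253 to 0.653), SPRED1 (0.276 to 0.561) and DUSP5 (0.290 to 0.589) were also low, with 6.42%, 6.91% and 7.97% of genes below them. SPRY4, at 0.458 to 0.949, had 20.2% of genes below it. PHLDA1 at 1.82 to 2.91 and DUSP6 at 1.60 to 3.30 were high, with 86.0% and 83.7% of genes below them. DUSP1, DUSP4 and ETV5 had ratios of 0.955 to 1.56, 1.04 to 1.79 and 1.08 to 1.93, and the median over all genes was 1.16 to 1.32.

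Few TE changes passed 2-fold. In quiescence SPRY4 and ETV4 were higher (3.72% of all genes) and none was lower (4.17%), with the same 2 called by local SDs (8.26%). In pre-senescence none was higher (5.70%) and DUSP5 was lower (8.85%), by 1.02 on the log2 scale, and it was also the gene called by local SDs (8.52%). The median TE change over all genes was -0.13 there, and relative to that median SPRY2 and SPRY4 were past 2-fold higher and DUSP5 no longer past 2-fold lower. In senescence none was higher (3.35%) and ETV4 was lower (6.08%), and none passed local SDs (7.08%). In transformed cells none was higher (1.28%), none was lower (2.13%) and none passed local SDs (7.93%). The TE ratios of SPRY2, SPRY4 and ETV4 were 0.134, 0.458 and 0.269 in proliferation of run 1 and 0.258, 0.814 and 0.618 in run 2, and the run 1 value was the lowest of the 6 columns for SPRY2 and SPRY4. Against run 2 the quiescent TE changes of SPRY4 and ETV4 were 0.22 and 0.08 on the log2 scale and neither was past 2-fold.

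The TE of DUSP4, DUSP5 and PHLDA1 was lower in all 3 RAS columns than in all 3 others, 3 of 10 beside 7.56% of all genes, and that of none was higher in all (5.04%). DUSP5 ratios were 0.558 to 0.589 without RAS and 0.290 to 0.477 with it, DUSP4 ratios 1.36 to 1.79 and 1.04 to 1.36, and PHLDA1 ratios 2.41 to 2.91 and 1.82 to 2.38. The gap was narrow for DUSP4 (1.360 in proliferation of run 1 and 1.355 in pre-senescence) and for PHLDA1. With each column centred on its median over all genes, DUSP5 alone kept this order. DUSP5 thus had higher RNA and a lower ratio of Ribo-Seq to RNA in every RAS column, and its Ribo-Seq level stood apart in senescence.

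The same families hold further genes that are not among the 10. The shares of all genes past 2-fold in RNA, against which their counts can be read, were 4.01% higher and 2.37% lower in quiescence, 1.77% and 2.00% in pre-senescence, 7.08% and 13.0% in senescence and 4.92% and 5.33% in transformed cells. Of 9 other MAP kinase phosphatase genes 5 were measured. None passed 2-fold in RNA in quiescence or pre-senescence, 1 was higher in senescence and 3 in transformed cells, where DUSP10, a phosphatase of p38 and JNK, was 2.67-fold higher in RNA and 2.34-fold in Ribo-Seq. Of 14 other Sprouty, SPRED and RAS GTPase activating genes 12 were measured, and in RNA 0, 1, 0 and 1 were higher and 0, 0, 1 and 1 lower in quiescence, pre-senescence, senescence and transformed cells. SPRED2, a paralogue of SPRED1, was 2.29-fold and 3.01-fold higher in the RNA and Ribo-Seq of transformed cells, and DAB2IP, a RAS GTPase activating protein, was 2.39-fold and 2.27-fold lower in senescence.

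Among 14 measured of 15 other ETS factors, 4 were lower in senescent RNA (13.0% of all genes) and 7 in senescent Ribo-Seq (16.6%), with none higher (7.08% and 11.0%). Their median senescent change was -0.59 in RNA and -0.96 in Ribo-Seq, beside the -0.00 and -0.10 of all genes, and FLI1 and ELF2 were lower in both assays, FLI1 by 2.63-fold and ELF2 by 2.32-fold in RNA. In transformed cells 2 were higher in RNA and 1 lower, with ETS2, itself a target and effector of ERK, higher 2.91-fold in RNA and 3.73-fold in Ribo-Seq.

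Of 16 further genes known to respond to ERK, 14 were measured. In RNA 2, 3, 5 and 5 were higher in quiescence, pre-senescence, senescence and transformed cells and 0, 0, 1 and 1 lower, and in Ribo-Seq 4, 3, 4 and 4 were higher and 0, 0, 5 and 1 lower. The Ribo-Seq shares of all genes were 9.11%, 7.13%, 11.0% and 5.28% higher and 8.02%, 10.3%, 16.6% and 7.36% lower in that order. TRIB1, a pseudokinase gene, was 3.30-fold higher in pre-senescent RNA and 3.86-fold in Ribo-Seq. EPHA4, a receptor tyrosine kinase gene, was 4.14-fold and 3.94-fold lower in transformed cells. LIF, a secreted cytokine gene, is listed at the floor of 1 in both proliferation columns and both assays, and reached 9.35 FPKM in senescent RNA and 15.4 FPKM in senescent Ribo-Seq.

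The genes of the RAS-ERK cascade itself, 25 measured of 27, stayed within 2-fold in most cases. In RNA 1 was higher in quiescence, 1 lower in senescence and 2 lower in transformed cells, and the 2 were HRAS and MRAS, a RAS-related GTPase gene that was 2.35-fold lower in RNA and 3.14-fold in Ribo-Seq. In Ribo-Seq 1 was higher and 1 lower in quiescence, 5 were lower in pre-senescence (10.3% of all genes) and 4 in transformed cells (7.36%), and 3 were higher in senescence (11.0%). The median RNA change of the cascade lay between -0.12 and 0.07 in the 4 comparisons.

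**Figure D3:**
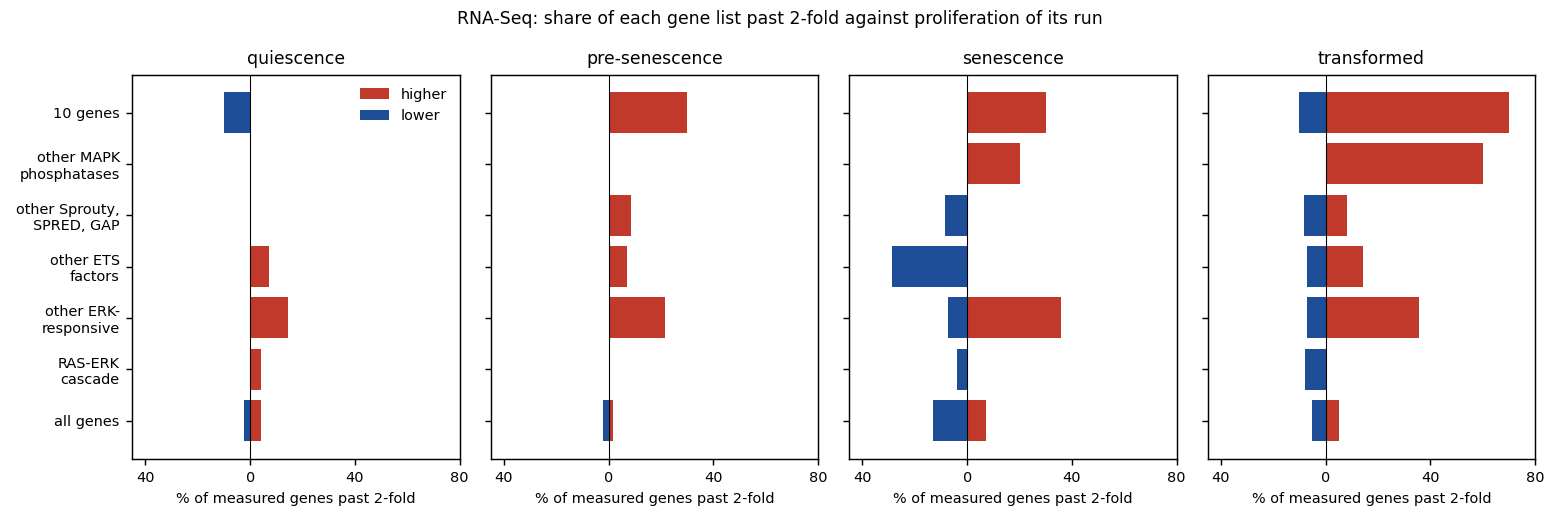
Percentage of the measured genes of each list that were past 2-fold higher (red, to the right) or lower (blue, to the left) in RNA-Seq against proliferation of the same run, for the 10 genes, 5 related lists and all 9699 genes. In transformed cells 7 of the 10 genes and 3 of 5 other MAP kinase phosphatases were higher, and in senescence 4 of 14 other ETS factors were lower.

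The profiles of the 10 genes, taken over both assays together, were alike only in part. Over the 12 columns, 6 of each assay and all from the same few libraries, Pearson's r of each gene's standardised log2 profile with the mean of the other 9 was 0.77 for SPRY4, 0.55 for DUSP4, 0.44 for DUSP6 and 0.40 for SPRED1. It was 0.38 for DUSP5, 0.37 for SPRY2, 0.33 for PHLDA1, 0.23 for ETV4, -0.20 for ETV5 and -0.46 for DUSP1. The assays were not centred apart, so r reflects a gene's ratio of Ribo-Seq to RNA as well as its course over conditions. SPRY2 and PHLDA1, with ratios of 0.134 to 0.281 and 1.82 to 2.91, differ widely in the former. A low r therefore does not show that the course over conditions differed, and the same limit holds for the search below. The 5 genes whose profile over these 12 columns was most like the mean of the 10, among 6987 with RNA of at least 10 FPKM in a column, were POU2F2 (r = 0.92), TRPV2 (0.87), TRIB1 (0.86), SVIL (0.85) and SLC20A1 (0.84). POU2F2 encodes an octamer-binding transcription factor, TRPV2 a cation channel, SVIL the actin-binding protein supervillin and SLC20A1 a phosphate transporter. TRIB1 and SLC20A1 were also on the list of further ERK-responsive genes. POU2F2 RNA was 6.68 and 3.20 FPKM in proliferating cells, 11.5 in quiescent, 13.1 in pre-senescent, 9.49 in senescent and 18.9 in transformed cells, highest in transformed cells and lowest in proliferation of run 2.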

How the data were processed

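RNA-Seq (polyadenylated RNA) and Ribo-Seq libraries of BJ cells were sequenced on an Illumina instrument. The authors aligned reads with Bowtie to Ensembl protein-coding transcripts (1 per gene; build hg19 per the labels), kept unique reads, and deposited FPKM with values below 1 set to 1. How replicate libraries were joined is not stated, and depth cannot be read from FPKM with a floor; the read totals that the study lists per library were not used here, so no counting interval is given. From these values log2 ratios to proliferation of the same run, TE and the 2-fold and local SD calls (501 genes nearest in level) were computed with python 3.11.15, numpy 2.4.6 and pandas 2.3.3, and checked on simulated data. No pseudocount or filter was used. Within a run each condition is 1 column, so no test against its control was made, and limma, planned for replicate columns, was not run; the 3 RAS columns are different conditions and were not tested as replicates. Samples were grouped by title. All 10 genes are named, and from each other list at most the 3 genes with the largest RNA change among those past 2-fold the same way in both assays in a comparison, besides label checks. The genes and lists were chosen with earlier results of these data known. Promoters came from RefSeq (GRCh38.p14). Alternatives were the other control, the mean of both, the local SD call, median centring, a pseudocount of 1, a 5 FPKM filter and the exchange of 2 Ribo-Seq columns. The target of 1 knock-down is not reported here.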

Additional observations from a re-analysis of the deposited data

Results flagged for a closer look

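ETV4 was the gene whose changes went past 2-fold in opposite directions between conditions. Its Ribo-Seq log2 change was 1.85 in quiescence and 1.88 in transformed cells but -1.55 in senescence. Its TE log2 change was 1.28 in quiescence and -1.29 in senescence. The difference between conditions was not tested, since each is 1 column. Quiescence was set against proliferation of run 1 and the other conditions against run 2. The Ribo-Seq levels behind these changes were 1.26 to 13.6 FPKM, and 1.26 lies close to the floor of 1, which limits how low ETV4 could be read. No group held 4 or more columns, so none was searched for outlying values.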

How the results depend on the processing

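The values that depended on processing were mostly those that rest on the control column, and the cause was not tested. With the proliferation column of the other run as control, the genes past 2-fold were 3 higher in RNA, 1 lower in Ribo-Seq and 0 higher in TE in quiescence. In pre-senescence they were 5 higher in RNA and 0 lower in TE, in senescence 1 lower in RNA (ETV4), 4 higher in Ribo-Seq, 1 higher in TE (SPRY2) and 0 lower in TE, and in transformed cells 0 lower in RNA and 0 lower in Ribo-Seq. With the mean of both proliferation columns, quiescence had 2 higher in RNA, 1 lower in Ribo-Seq and 0 higher in TE, and 0 were lower in pre-senescent TE, in senescent TE and in transformed RNA. With calls by local SDs the counts were 1 higher in quiescent RNA, 5 higher in pre-senescent RNA, 1 higher and 0 lower in senescent Ribo-Seq and 0 lower in senescent TE. Centring on the median of all genes gave 2 higher and 0 lower in pre-senescent TE. A pseudocount of 1 left 0 lower in senescent TE, and keeping genes of at least 5 FPKM left 0 lower in senescent Ribo-Seq and TE, since the filter leaves out ETV4. Exchanging the senescent and run 2 Ribo-Seq columns gave 1 higher and 2 lower in senescent Ribo-Seq, 1 higher and 5 lower in senescent TE and 0 genes with RAS above in Ribo-Seq. The senescent Ribo-Seq changes reverse by construction under it, as for DUSP4 (-2.13), DUSP5 (-1.73) and ETV4 (1.55), and ETV4 was also reversed in TE (1.82). For transformed cells this exchange, added after seeing the data, gave 2 higher and 2 lower in Ribo-Seq and 1 higher and 5 lower in TE, and reversed DUSP4 in Ribo-Seq (-0.80). Relative to the proliferation column of each run, 0 genes had all RAS columns above in Ribo-Seq. With median-centred columns 1 gene, DUSP5, had TE below in all RAS columns. The 7 genes higher in transformed RNA were 5 with the other control and 7 under each of the other settings. No paired analysis was possible because the joined columns carry no replicate numbers and no test was made, and leaving out replicates could not be run for the same reason. Depth cannot be read from these values and the study's read totals were not used here, so no counting error is given, and ETV4, at 1.26 FPKM in senescent Ribo-Seq, had the lowest value of the 10 genes.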
